A study of Mus musculus with 11 samples.

Results

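The 10 genes described here belong to the Notch pathway. They are the receptors Notch1, Notch2, Notch3 and Notch4, the ligand Jag1, and the target genes Hes1, Hey1, Hey2, Heyl and Nrarp. They were taken by symbol from the gene table of the droplet libraries, where they are 10 of 27998 genes, and all 10 were also found by symbol in the plate data. Their RNA was followed across the types of mesenchymal cell in mouse liver, in uninjured animals and after injury. These types are fibroblasts (FBs), hepatic stellate cells (HSCs) and vascular smooth muscle cells (VSMCs).

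Notch receptors are single-pass membrane proteins that are activated by ligands on a neighbouring cell. On activation the receptor is cut by an ADAM protease and then by gamma-secretase, and its intracellular part enters the nucleus, where it joins the DNA-binding protein RBPJ and Mastermind coactivators and switches on target genes. Hes1, Hey1, Hey2 and Heyl encode basic helix-loop-helix repressors, and Nrarp encodes an ankyrin repeat protein that limits the pathway that induces it. Notch3 is known as the receptor of arterial smooth muscle, and Jag1 is needed for the bile ducts to form in the developing liver.

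Cells came from adult male Pdgfrb-BAC-eGFP mice on a C57BL/6 background, in which a transgene with the Pdgfrb regulatory sequence drives green fluorescent protein in mesenchymal cells. Uninjured and injured mice all carried the reporter, and GFP+ cells without CD45 or CD102 staining were sorted, so that leucocytes and endothelial cells were gated out. For the droplet assay (10X Chromium) there were 5 libraries of 3 pooled mice each. Uninjured mice and mice given repeated carbon tetrachloride (CCl4) for 6 weeks were each taken through digestion protocol 1, labelled PF, and through digestion protocol 2, labelled HSC, and mice 72 h after 1 dose of CCl4 were taken through protocol 2. Protocol 1 digested minced liver, and protocol 2 perfused the enzymes through the liver and enriched HSCs on a density gradient. The plate assay (Smart-seq2, SS2) sampled 3 conditions on 6 plates: no injury, 14 days after bile duct ligation (BDL), and 6 weeks of CCl4. CCl4 is a hepatotoxin that damages the liver around the central vein, and BDL dams bile and injures the liver around the portal tracts.

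The 10X libraries kept 5454 to 7310 cells each, with 25965670 to 86664085 UMIs (unique molecular identifiers, each marking 1 captured RNA molecule) and median UMIs per cell of 4300 to 11344. Pairs of libraries shared 33 to 74 barcodes. Cells were clustered without the 10 genes and without the other Notch pathway genes, and clusters were named from fixed markers. There were 4065 FB-like cells in the uninjured and 2639 in the 6-week library of protocol 1, 1511 and 2785 VSMC-like cells in the same libraries, and 6850, 7293 and 5432 HSC-like cells in the uninjured, 72 h and 6-week libraries of protocol 2. In uninjured cells each type carried its own markers, at 282 to 2999 UMIs per 1000000 (CPM) for the FB list, 1465 to 16583 CPM for the VSMC list and 578 to 15298 CPM for the HSC list, and after injury the HSC list lay at 164 to 2124 CPM at 72 h and 384 to 5339 CPM at 6 weeks. FB-like and VSMC-like cells came from protocol 1 and HSC-like cells from protocol 2, so in the 10X data HSC-like cells cannot be told apart from their protocol. Each condition was 1 library per protocol, so 10X values carry exact intervals for counting error only and no test was made.

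The SS2 plates kept 2065 wells, 542 FB-like, 913 VSMC-like, 312 HSC-like and 298 in unnamed clusters. Wells of 1 type from 1 mouse of a plate's layout were summed to a portion, which served as the sample. FB-like and VSMC-like cells each had 15 portions (6 uninjured, 5 BDL and 4 CCl4), with 3272250 to 46222000 reads for FB-like and 9956190 to 46020500 reads for VSMC-like portions. HSC-like wells were found in 2 uninjured portions on 1 plate. That plate is labelled 1 PF and 2 HSC, and the other plates are labelled PF only. The 2 portions held no FB-like or VSMC-like wells. So in the SS2 data, too, HSC-like cells cannot be told apart from their protocol. The sources used here do not say whether portions on different plates came from different mice, so p-values measure the spread between portions. In 12 control wells, of 341 to 16575 reads each, the 10 genes had 14 reads together.

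Each mesenchymal type had its own leading receptor. To compare genes, levels were divided by the summed length of all annotated exons, so gaps between genes also depend on the annotation. That length was 14.2 kb for Notch1, 10.8 kb for Notch2, 8.09 kb for Notch3 and 8.06 kb for Notch4. By this measure Notch3 led in VSMC-like portions at 91.4 ± 23.4 reads per kilobase per 1000000 reads (RPKM; SD, n = 15), with Notch2 at 15.2 ± 4.28, Notch1 at 8.96 ± 2.21 and Notch4 at 0.230 RPKM. In FB-like portions Notch2 led at 9.26 ± 2.91 RPKM (SD, n = 15), followed by Notch3 at 4.07 ± 4.64 and Notch1 at 2.15 ± 1.31 RPKM. Notch3 and Notch1 overlapped there within their spread. In the 2 HSC-like portions Notch1 led at a mean of 18.7 RPKM, ahead of Notch2 at 5.81, Notch3 at 1.78 and Notch4 at 0.720 RPKM.

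**Figure D1:**
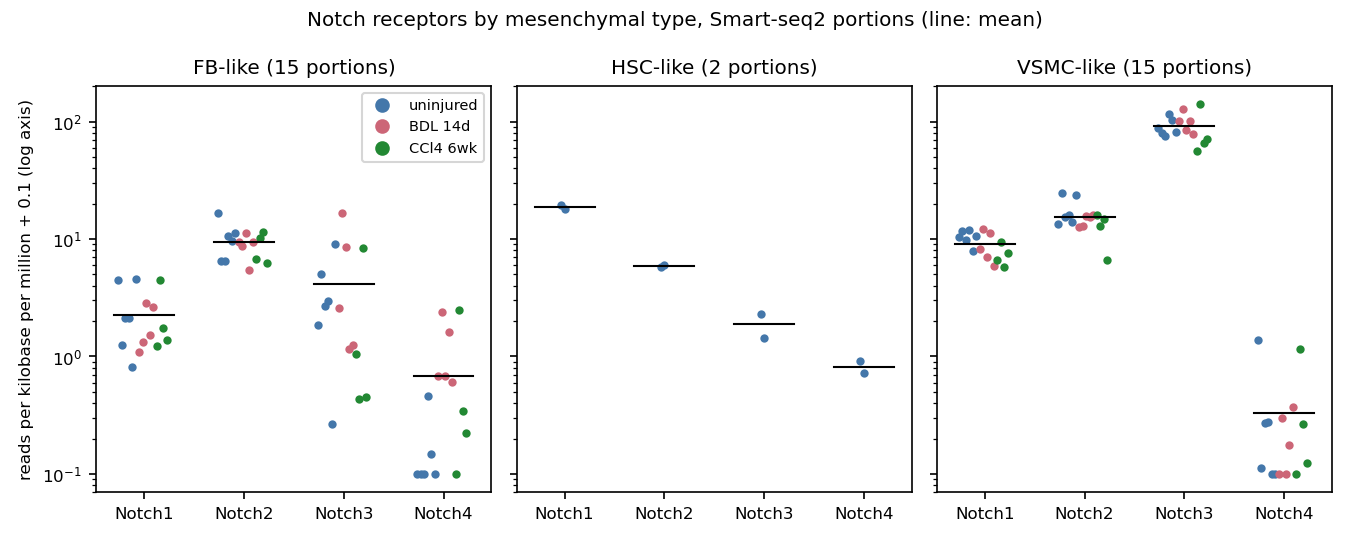
Level of the 4 Notch receptors in SS2 portions by mesenchymal type, in RPKM plus 0.1 on a log axis. Each point is 1 portion, coloured by condition, and the line is the mean. Notch3 stands above the other receptors in VSMC-like portions, Notch1 in HSC-like portions, and Notch2 has the highest mean in FB-like portions.

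Notch3 in VSMC-like portions ran from 454 to 1131 reads per 1000000 (RPM), with a median of 689, and in FB-like portions from 1.35 to 135 RPM, with a median of 20.3. The ranges did not overlap. In the HSC-like portions it was 18.0 and 10.9 RPM. The 10X libraries gave Notch3 255 CPM (95% interval 240 to 269) in uninjured VSMC-like cells, 9.11 (7.84 to 10.5) in FB-like and 10.99 (10.1 to 12.0) in HSC-like cells. Per portion, the median ratio of VSMC-like to FB-like Notch3 was 38.8 (RPM + 1).

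Notch1 separated the 3 types in the plates, and Notch2 did not. Notch1 was 278 and 254 RPM in the HSC-like portions, 80.3 to 172 RPM in VSMC-like portions (median 134) and 10.2 to 64.2 RPM in FB-like portions (median 23.6). No pair of types overlapped for Notch1. Notch2 was 61.0 and 64.1 RPM in the HSC-like portions, 69.8 to 263 RPM in VSMC-like portions (median 165) and 57.8 to 180 RPM in FB-like portions (median 100.4), and the FB-like range overlapped both the HSC-like and the VSMC-like values. The 10X order was the same for uninjured cells, with Notch1 at 71.1 CPM in HSC-like, 28.3 in VSMC-like and 5.69 in FB-like cells, and Notch2 at 33.3 CPM in HSC-like, 68.1 in VSMC-like and 63.7 in FB-like cells. The 95% intervals of Notch2 in VSMC-like (60.9 to 76.0) and FB-like cells (60.2 to 67.2) overlapped. Notch4, which is known mainly from endothelium, was at 1.42 to 3.89 CPM in every type and library.

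The ligand and the target genes had their highest levels in VSMC-like cells. Between VSMC-like and FB-like portions, the ranges of 7 of the 10 genes did not overlap, with VSMC-like portions higher in each: Notch1, Notch3, Jag1, Hes1, Hey2, Heyl and Nrarp. Of 11426 genes with at least 20 RPM in a portion, 4.38% had all VSMC-like portions above all FB-like portions. Hey1 was higher in VSMC-like cells in 15 of 15 portions and Notch2 in 14 of 15, with overlapping ranges, and Notch4 in 3 of 15. Types are clusters of the same cells, so these values describe the clusters and no test was made. The median number of the 10 genes with a read in a well was 7 in VSMC-like, 4 in HSC-like and 3 in FB-like wells.

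Jag1, the ligand, was 242 to 623 RPM in VSMC-like portions (median 360), 20.9 to 141 RPM in FB-like portions (median 56.2), and 110 and 83.1 RPM in the HSC-like portions. Hes1 was 243 to 543 RPM in VSMC-like portions (median 326), 19.9 to 185 RPM in FB-like portions (median 88.7), and 151 and 139 RPM in HSC-like portions. For both genes the HSC-like portions lay within the FB-like range. Heyl was 447 to 954 RPM in VSMC-like portions (median 656), 31.2 to 265 RPM in FB-like portions (median 135), and 252 and 174 RPM in HSC-like portions, which again fell in the FB-like range. The 10X libraries differed from this. Uninjured HSC-like cells, from the other protocol, had more of each gene than FB-like cells. Jag1 was 58.0 against 20.6 CPM, Hes1 485 against 191 CPM and Heyl 71.1 against 35.5 CPM.

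Hey2 and Nrarp separated the VSMC-like cells most among the targets. Hey2 was 96.0 to 313 RPM in VSMC-like portions (median 214), 0 to 68.6 RPM in FB-like portions (median 9.07), and 10.3 and 5.51 RPM in HSC-like portions. Nrarp was 84.2 to 505 RPM in VSMC-like portions (median 272), 0 to 0.846 RPM in FB-like portions (median 0.179), and 0.236 and 0.014 RPM in HSC-like portions. The median ratio of VSMC-like to FB-like cells within a portion (RPM + 1) was 200 for Nrarp, with a lowest ratio of 85.2 and a highest of 424, and 22.9 for Hey2. Hey1 was the lowest of the Hey genes in VSMC-like portions, at 14.6 ± 6.65 RPKM (SD, n = 15) against 46.4 ± 14.2 for Hey2 and 141 ± 32.1 for Heyl.

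**Figure D2:**
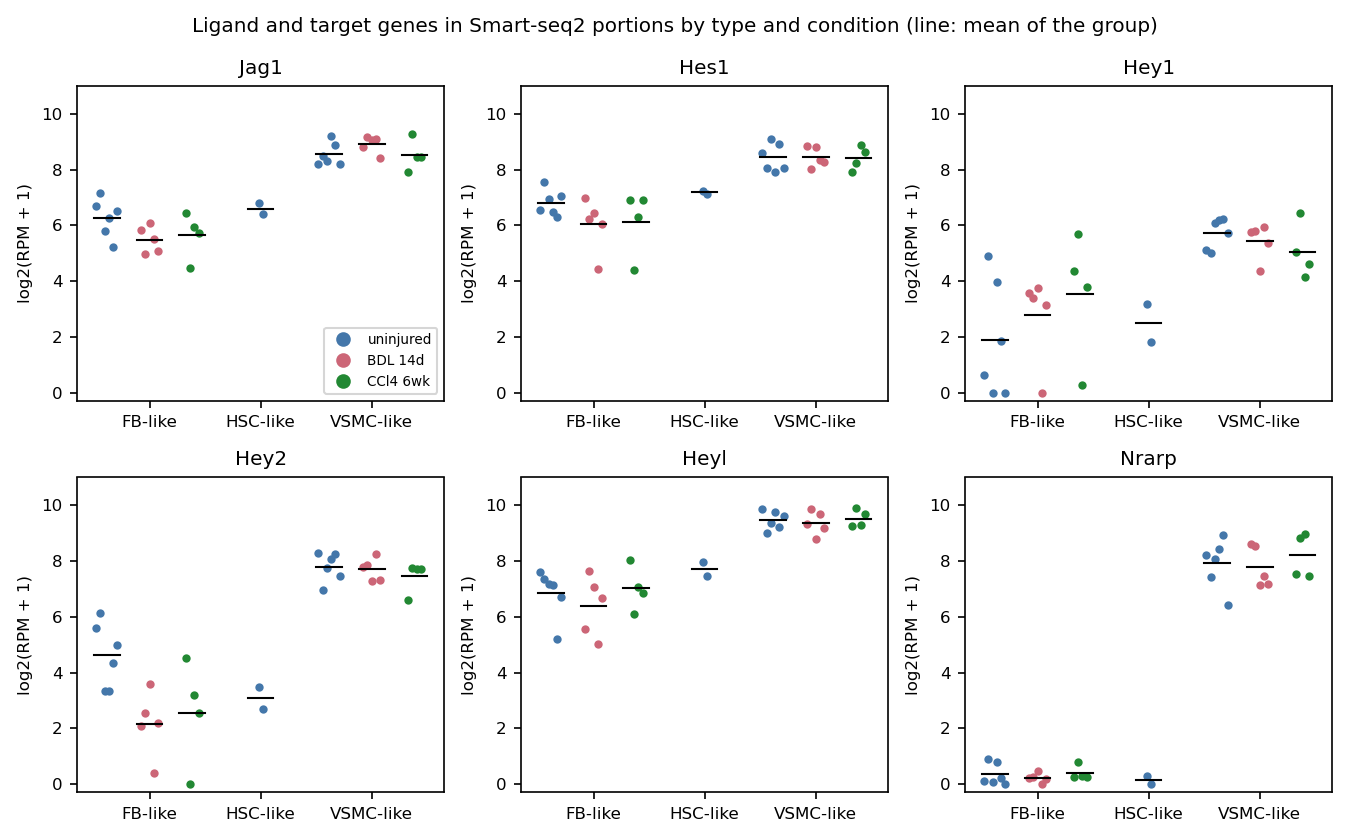
Level of the ligand Jag1 and of the 5 target genes in SS2 portions, as log2(RPM + 1), by mesenchymal type and condition. Each point is 1 portion and the line is the mean of the group. VSMC-like portions lie above all FB-like portions for Jag1, Hes1, Hey2, Heyl and Nrarp, and Nrarp lies near 0 in FB-like and HSC-like portions.

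In the 10X libraries Nrarp was 292 CPM (277 to 308) in uninjured VSMC-like cells and 2.82 CPM (2.14 to 3.66) in uninjured FB-like cells, and HSC-like cells held 5, 8 and 3 Nrarp UMIs in the uninjured, 72 h and 6-week libraries. At least 1 Nrarp UMI was found in 43.2% of uninjured VSMC-like cells (exact 95% interval 40.6 to 45.7), 1.33% of FB-like cells (0.999 to 1.73) and 0.0730% of HSC-like cells (0.0237 to 0.170). The shares were 35.5%, 0.464% and 0.0297% when each cell was thinned to 2000 UMIs, which left out 144, 188 and 114 shallower cells. FB-like and VSMC-like cells shared a library, so the share in FB-like cells has to be read against free RNA. In uninjured FB-like cells Nrarp stood at 0.966% and Notch3 at 3.58% of their level in VSMC-like cells. The smooth muscle markers stood at 0.859% for Tagln, 1.01% for Pln, 1.43% for Myh11, 1.44% for Acta2 and 2.98% for Tpm2.

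**Figure D3:**
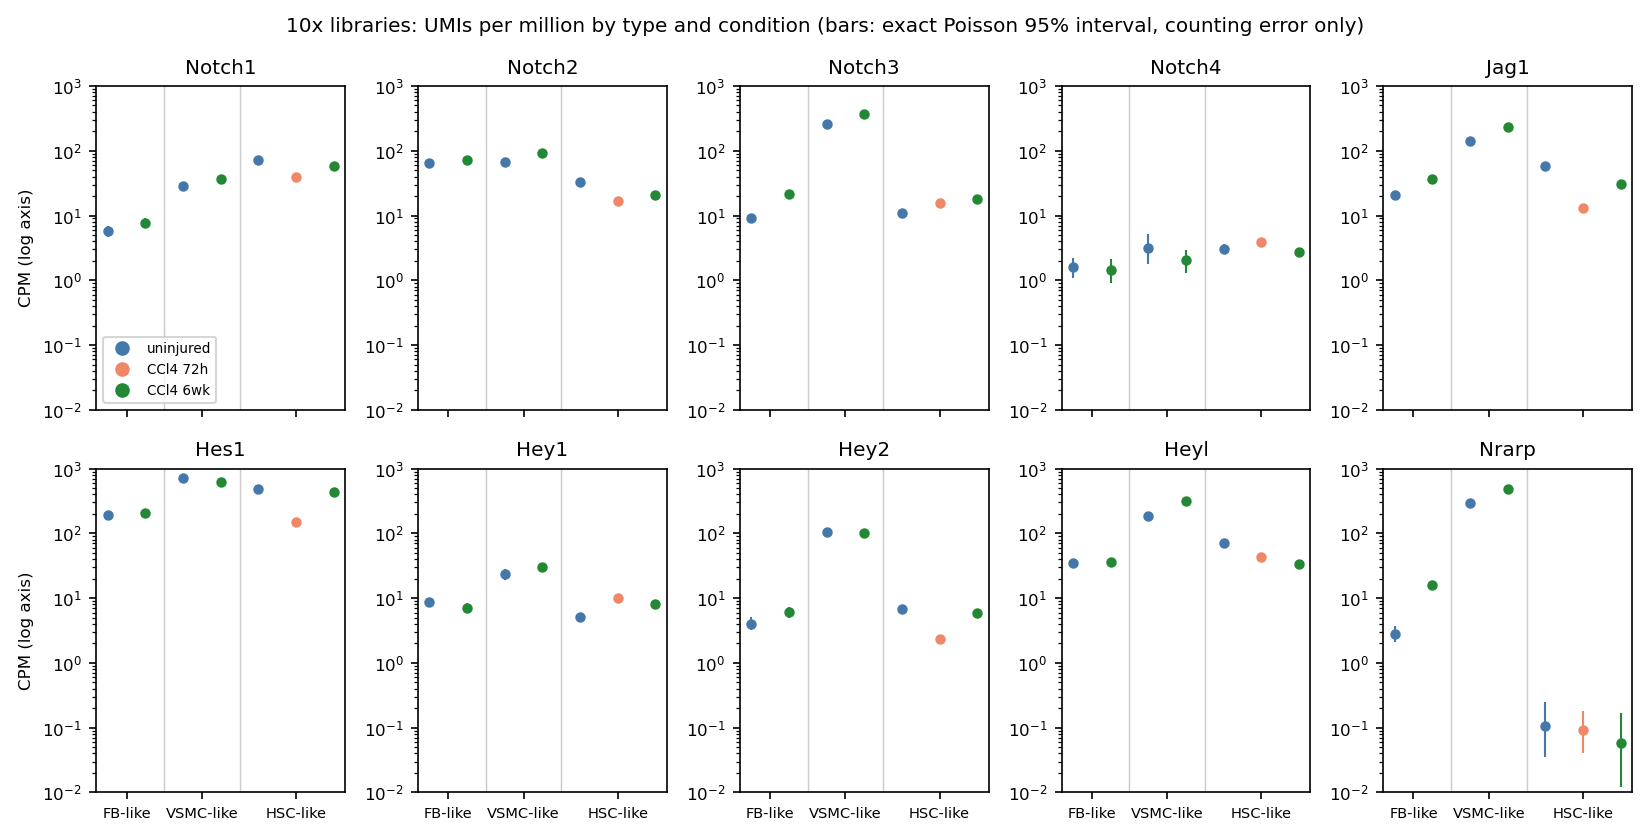
CPM (log axis) of the 10 genes in the 10X libraries, by mesenchymal type and condition, 1 point per library, with exact Poisson 95% intervals that cover counting error only. Nrarp ranges from below 1 CPM in HSC-like cells to 483 CPM in VSMC-like cells at 6 weeks of CCl4, while Notch2 stays between 16.7 and 93.1 CPM.

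Promoter sequence is shown for 3 genes that separated VSMC-like from other cells most, 1 receptor and 2 targets. Each runs from 250 bases before to 25 bases after the RefSeq start, 5′ to 3′ on the gene's strand, in mouse build GRCm38.p6. Capitals mark the core of the RBPJ site, TGGGAA or its reverse complement TTCCCA, and CACGTG, an E box of the kind that basic helix-loop-helix repressors can bind. The positions are chr10:30842759-30843033 (minus strand) for Hey2, chr2:25180508-25180782 (plus strand) for Nrarp and chr17:32166866-32167140 (minus strand) for Notch3.
Hey2: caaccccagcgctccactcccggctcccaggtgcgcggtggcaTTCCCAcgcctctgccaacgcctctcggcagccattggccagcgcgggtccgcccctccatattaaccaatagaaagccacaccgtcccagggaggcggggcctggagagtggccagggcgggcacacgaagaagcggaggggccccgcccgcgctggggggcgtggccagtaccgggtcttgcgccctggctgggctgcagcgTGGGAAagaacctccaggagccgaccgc
Nrarp: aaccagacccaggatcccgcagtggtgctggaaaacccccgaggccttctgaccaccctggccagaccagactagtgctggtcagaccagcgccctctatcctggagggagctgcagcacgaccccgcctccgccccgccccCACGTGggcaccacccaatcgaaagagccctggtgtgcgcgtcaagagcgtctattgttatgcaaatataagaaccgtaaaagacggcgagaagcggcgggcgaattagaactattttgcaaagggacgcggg
Notch3: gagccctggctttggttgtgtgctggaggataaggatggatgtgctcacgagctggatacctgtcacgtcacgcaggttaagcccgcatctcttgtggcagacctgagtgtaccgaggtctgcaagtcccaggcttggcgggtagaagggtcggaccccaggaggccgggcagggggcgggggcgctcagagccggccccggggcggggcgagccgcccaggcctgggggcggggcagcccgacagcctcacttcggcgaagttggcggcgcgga
The Hey2 window held 2 RBPJ cores, 207 and 3 bases before the start, the Nrarp window held 1 CACGTG, 108 bases before the start, and the Notch3 window held neither. Promoters of 7 of the 10 genes were in the RefSeq table (all but Hes1, Hey1 and Heyl), and 1 of the 7 held an RBPJ core and 1 a CACGTG. Of all 32541 promoter windows of this length, 23.5% held TGGGAA or TTCCCA and 6.69% held CACGTG. A match of these letters is a description and not evidence of binding.

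By gene, positions in GRCm38 are as follows. Notch1 (ENSMUSG00000026923) lies at chr2:26457903-26516663, Notch2 (ENSMUSG00000027878) at chr3:98013527-98150361, Notch3 (ENSMUSG00000038146) at chr17:32120820-32166852 and Notch4 (ENSMUSG00000015468) at chr17:34564268-34588503. Jag1 (ENSMUSG00000027276) lies at chr2:137081456-137116644. The targets are at chr16:30064384-30067796 for Hes1 (ENSMUSG00000022528), chr3:8663359-8667256 for Hey1 (ENSMUSG00000040289), chr10:30832359-30842801 for Hey2 (ENSMUSG00000019789), chr4:123233556-123249875 for Heyl (ENSMUSG00000032744) and chr2:25180758-25183339 for Nrarp (ENSMUSG00000078202).

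Within the VSMC-like cells the Notch genes differed between clusters. In the 10X data cluster 4, led by Higd1b, held 555 uninjured and 1918 6-week cells, and cluster 7, led by Pln and Tcap, held 956 and 867. Nrarp in uninjured cells was 562 CPM in cluster 4 and 147 CPM in cluster 7. Notch3 was 362 and 197 CPM, Jag1 was 194 and 116 CPM, and Heyl was 174 and 196 CPM. So Nrarp, Notch3 and Jag1 were higher in cluster 4, and Heyl was not.

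SS2 wells showed a like split of VSMC-like cells. Nrarp was 501 RPM in cluster 5 (193 wells, led by Higd1b), 409 RPM in cluster 1 (350 wells, led by Rergl), 94.5 RPM in cluster 3 (296 wells) and 8.7 RPM in cluster 10 (74 wells, led by Actc1). Notch3 took the same order, at 1164, 895, 477 and 367 RPM. Over the 913 VSMC-like wells the Spearman correlation was 0.37 between Notch3 and Nrarp, 0.34 between Notch3 and Jag1 and 0.29 between Jag1 and Nrarp, against -0.01 between Notch2 and Notch3. Wells share portions and plates, so these correlations are a description.

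The next question was whether the Notch genes differ between HSCs from the portal and the central part of the lobule. HSC-like cells of each protocol 2 library were divided by a score over the study's 81 zonation genes, 52 portal and 29 central, which the study chose on the uninjured cells of this series. Heyl is 1 of the 52 portal genes. It was left out of the score here, but since it had been picked as portal from these cells its portal excess is a description and not independent evidence. The other 9 genes are not in the list. Portal cells numbered 3021 of 6850 in the uninjured, 1708 of 7293 in the 72 h and 1752 of 5432 in the 6-week library. Notch3 showed the largest ratio of the 6 genes at 20 CPM or more in either zone, in each library. It was 23.2 CPM in portal and 1.13 CPM in central cells of uninjured liver, a ratio of 20.5 (95% interval 14.1 to 31.0), 38.4 and 9.64 CPM at 72 h, a ratio of 3.99 (3.58 to 4.44), and 46.3 and 4.61 CPM at 6 weeks, a ratio of 10.0 (8.45 to 11.9).

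Heyl and Jag1 were also higher in portal cells of all 3 libraries. Heyl was 111 and 38.8 CPM in uninjured portal and central cells, with a ratio of 2.86 there, 2.74 at 72 h and 3.22 at 6 weeks. Jag1 was 78.5 and 41.6 CPM in uninjured cells, with ratios of 1.89, 3.08 and 2.52. Notch1 ratios were 1.22, 1.54 and 1.36, Notch2 ratios 1.08, 1.31 and 1.12, and Hes1 ratios 0.80, 1.13 and 0.89. Hes1 was thus the gene of this group that was higher in central cells of uninjured liver, at 532 against 427 CPM. Among the genes at 20 CPM or more in either zone, Heyl included, 3 of 6 were at least 1.5-fold higher in portal cells of the uninjured library, where 2.16% of all genes compared were, 4 at 72 h (6.46%) and 3 at 6 weeks (5.64%). None was at least 1.5-fold lower, against 1.25%, 4.62% and 3.71% of all genes.

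**Figure D4:**
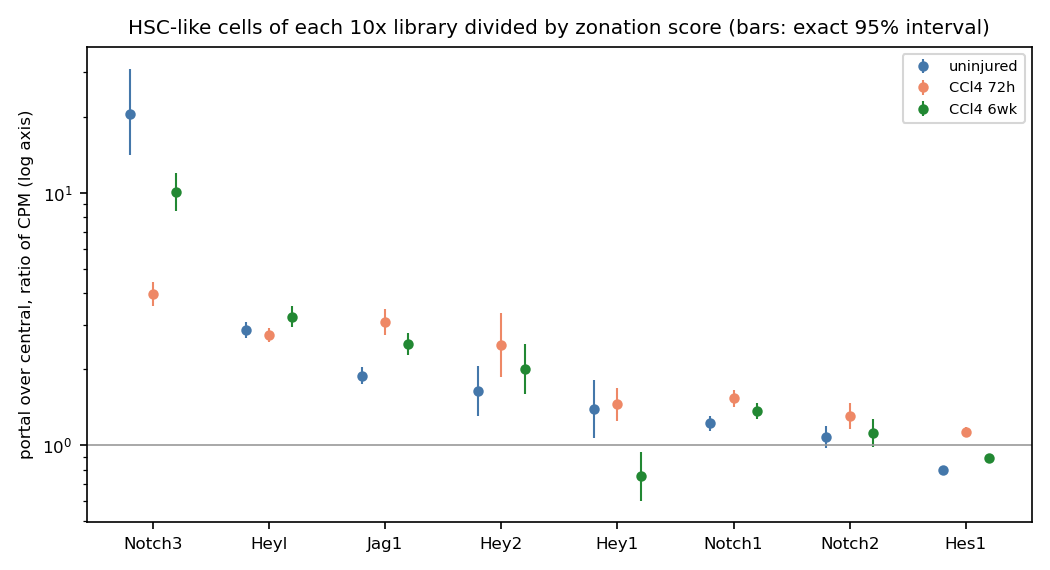
Ratio of CPM in portal to central HSC-like cells of each 10X library on a log axis, for 8 of the genes (Notch4 and Nrarp are not drawn), with exact 95% intervals. Of those drawn, Notch3 has the highest ratio in each library (20.5, 3.99 and 10.0), Heyl and Jag1 lie above 1 in all 3, and Hes1 lies on either side of 1.

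Smooth muscle transcripts moved with the portal score. The 5 VSMC markers summed to 908 CPM in portal and 341 CPM in central cells of the uninjured library, 2213 and 1938 CPM at 72 h, and 2081 and 496 CPM at 6 weeks. The 6 endothelial markers summed to 2.05 to 3.96 CPM in these groups. Cluster 16, led by Clec4g, had Notch3 at 238 CPM in its 105 uninjured cells and 60.4 CPM in its 844 6-week cells, with VSMC markers at 3016 and 2377 CPM. Without cluster 16 the Notch3 ratio was 13.8 (9.40 to 20.9) in the uninjured and 6.41 (5.24 to 7.86) in the 6-week library, and that of Heyl 2.78 and 2.58. The part of smooth muscle transcripts in these ratios was not tested further.

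For injury in HSC-like cells, the question was how the Notch genes stood 72 h after 1 dose of CCl4 and after 6 weeks. At 72 h Jag1, Hes1 and Heyl were lower than in uninjured cells. Jag1 was 58.0 CPM (55.9 to 60.3) in uninjured cells, 12.97 (12.2 to 13.8) at 72 h and 31.0 (29.5 to 32.6) at 6 weeks. Hes1 was 485 CPM (479 to 491), 149 (146 to 152) and 437 (431 to 443), so that its level at 6 weeks lay near the uninjured one. Heyl was 71.1 CPM (68.7 to 73.6), 43.0 (41.6 to 44.4) and 34.3 (32.7 to 35.9), lowest at 6 weeks.

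As ratios to the uninjured library at 72 h, Jag1 was 0.224 (0.208 to 0.240), Hes1 0.307 (0.300 to 0.314), Notch2 0.502 (0.467 to 0.540), Notch1 0.553 (0.527 to 0.580) and Heyl 0.605 (0.577 to 0.634). All 5 genes at 20 CPM or more were at least 1.5-fold lower, in a comparison in which 26.4% of 6229 genes were lower and 13.3% higher by that much. With each cell thinned to 2000 UMIs it was 4 of 5, as Notch2 was then 0.754. The median log2 ratio over all genes was -0.21. With TMM scaling it was -0.07 and the split 19.2% lower and 17.2% higher, and the 5 ratios were 0.244, 0.335, 0.548, 0.604 and 0.660. Immediate early genes, which mark handling stress, moved the same way: their 9 genes summed to 12434 CPM in uninjured, 7174 at 72 h and 10176 at 6 weeks. The 9 heat shock genes summed to 5044, 2488 and 4990 CPM. The part of handling in the Notch values was not tested. Notch3 and Hey1, below 20 CPM, went the other way at 72 h, from 10.99 to 15.6 and from 5.04 to 10.1 CPM.

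At 6 weeks 3 of the 5 genes were at least 1.5-fold lower, Heyl at 0.482 (0.455 to 0.511), Jag1 at 0.534 (0.502 to 0.569) and Notch2 at 0.622 (0.575 to 0.673), against 11.3% of 6011 genes lower and 6.19% higher. Notch1 was 0.824 and Hes1 0.901 of the uninjured level. As at 72 h, Notch3 and Hey1, below 20 CPM, went the other way, at 1.61 (1.44 to 1.80) and 1.62 (1.38 to 1.91). Hey2, Notch4 and Nrarp, also below 20 CPM, had ratios under 1 with intervals that included 1. TMM scaling moved the median log2 ratio of all genes from -0.22 to -0.05 and the split to 5.04% lower and 9.11% higher, and left 2 of the 5 past 1.5-fold. The HSC-like cells of each condition sat mainly in different clusters, 3, 5 and 9 in uninjured, 2, 12, 13 and 14 at 72 h, and 8, 11, 15 and 16 at 6 weeks. So each ratio compares different clusters as well as conditions.

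Notch2 in HSC-like cells was concentrated in a few clusters. It was 84.8 CPM in cluster 9 (1694 uninjured cells), 61.6 CPM in cluster 13 (1403 cells at 72 h) and 69.2 CPM in cluster 15 (971 cells at 6 weeks), and 7.70 to 32.0 CPM in the other HSC-like clusters. Each condition thus had a group of Notch2-high HSC-like cells. Median UMIs per cell in these groups were 6574 in cluster 9, beside 6344 in cluster 3 of the same library, and 5851 in cluster 13 and 4660 in cluster 15, beside 9940 to 13383 in the main other clusters of their libraries. Jag1 was also high in uninjured cells of cluster 9, at 105.8 CPM, and in cluster 15, at 61.9 to 88.8 CPM. Without clusters 9, 13 and 15 the Notch2 ratio was 0.616 at 72 h and 0.857 at 6 weeks, and with thinned cells 0.795 at 6 weeks.

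Fibrillar collagens are the main matrix of a scar. Within each injured library HSC-like cells were divided by their Col1a1, Col1a2 and Col3a1 level into collagen-high and other cells. These numbered 4530 and 2763 at 72 h and 4374 and 1058 at 6 weeks. The level was a geometric mean, which falls near 0 in a cell without UMIs of 1 of the genes. In the uninjured library the same division put 3396 cells in the high and 3454 in the other group. Median UMIs per cell in collagen-high and other cells were 12519.5 and 10156 at 72 h, and 10175.5 and 8005 at 6 weeks. The part of depth in the values below was not tested. At 72 h Jag1 was 9.08 CPM in collagen-high and 20.9 CPM in other cells, a ratio of 0.43 (0.39 to 0.49), and the ratios were 0.61 for Heyl, 0.64 for Notch1, 0.66 for Notch3, 0.77 for Hes1 and 1.00 for Notch2. In this library 4 of the genes were at least 1.5-fold lower, against 5.72% of all genes compared, and none higher, against 3.79%. With a stricter division no gene at 20 CPM or more was past 1.5-fold. Jag1 was then 0.61 (0.52 to 0.71), but below 20 CPM in both groups, and Notch1 was 0.68. Notch3 turned to 1.39 (1.24 to 1.56). At 6 weeks the ratios were 0.57 for Notch3, 0.66 for Heyl, 0.67 for Jag1, 0.74 for Notch2, 0.81 for Notch1 and 0.95 for Hes1, with 3 at least 1.5-fold lower, against 1.46%, and none higher, against 1.87%.

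Most collagen-high cells were central by the zonation score, since 5.39% of them were portal at 72 h and 26.0% at 6 weeks. Within a zone the Notch3 difference turned at 72 h, and at 6 weeks no difference was resolved in either zone. For Notch3 at 72 h the ratio of collagen-high to other cells was 1.49 (1.24 to 1.77) in portal cells. In central cells it was 2.56 (1.96 to 3.40). At 6 weeks the ratios were 1.09 (0.93 to 1.28) in portal and 1.13 (0.65 to 2.11) in central cells. Both intervals included 1. In central cells Notch3 was below 20 CPM in both groups of each library. Heyl ratios in portal and central cells were 0.99 and 1.13 at 72 h and 0.89 and 1.40 at 6 weeks. Jag1 stayed lower in 3 of the 4 divisions, at 0.58 in portal and 0.77 in central cells at 72 h and 0.66 in central cells at 6 weeks, and was 1.03 in portal cells at 6 weeks. In central cells at 72 h Jag1 was below 20 CPM, at 8.57 and 11.1 CPM. Notch1 ratios were 0.65, 0.72, 0.91 and 0.85, and the interval of the 0.91, in portal cells at 6 weeks, included 1 (0.81 to 1.04).

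FB-like cells were compared after 6 weeks of CCl4 in the 10X data, and after BDL and CCl4 in the SS2 data. In the 10X libraries Notch3 was 9.11 CPM (7.84 to 10.5) in uninjured and 21.4 CPM (19.3 to 23.7) in 6-week FB-like cells, a ratio of 2.35 (1.96 to 2.82). Jag1 was 20.6 CPM (18.7 to 22.7) and 36.2 CPM (33.4 to 39.2), a ratio of 1.76 (1.55 to 2.00). Notch2, Hes1 and Heyl stood at 1.12, 1.07 and 1.03 of their uninjured level. So 2 of 5 genes were at least 1.5-fold higher, against 4.66% of all genes, and none was lower, against 1.86%.

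The smooth muscle markers were also higher in these FB-like cells at 6 weeks, Tagln 2.07-fold, Acta2 2.91-fold, Tpm2 2.33-fold, Pln 1.81-fold and Myh11 3.55-fold. The 6-week library held 2785 VSMC-like cells and the uninjured library 1511. Nrarp, below 20 CPM, was 2.82 CPM in uninjured and 15.7 CPM in 6-week FB-like cells, or 0.966% and 3.26% of its VSMC-like level, and the markers were 0.859% to 2.98% and 2.33% to 8.08% of theirs. The part of VSMC transcripts in these FB-like values was not tested.

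In the SS2 portions no Notch gene passed the test in the wells named FB-like. Wells in unnamed clusters were left out, unevenly by condition. Unnamed cluster 6 held 2 uninjured, 22 BDL and 138 CCl4 wells, and unnamed cluster 9 held 75, 0 and 34. Both scored highest on the FB markers, so the fits cover only part of the wells closest to FBs. With edgeR's quasi-likelihood test, plate as a term and Benjamini-Hochberg adjustment over 12857 genes, 0 of 9 tested members were called after BDL, 0 after CCl4 and 0 between the injuries (Nrarp was too low to test). The percentage of all genes called was 0.0% in each, while 832, 399 and 506 genes had an unadjusted p under 0.05. DESeq2, which called 3.48% of all genes after BDL, called 1 of the members, Notch4, as higher (log2 fold change 7.50, SE 2.30, adjusted p = 0.0379). Notch4 was 4.11 to 18.6 RPM in the 5 BDL portions and 0 to 2.91 RPM in the 6 uninjured portions, which do not overlap, but edgeR gave it an adjusted p of 0.847. Endothelial markers summed to 0.3 to 18.8 RPM in the BDL and 0 to 33.2 RPM in the uninjured portions.

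Jag1 had the lowest p of the members in FB-like cells after BDL. It was 102, 141, 54.4, 75.9, 36.6 and 91.6 RPM in the uninjured portions and 56.2, 30.5, 66.4, 44.0 and 32.5 RPM in the BDL portions. The ranges overlapped. The log2 fold change was -1.29 (SE 0.46, 95% interval -2.28 to -0.30), with an unadjusted p of 0.0151 and an adjusted p of 0.659 (edgeR). For Hey2 the uninjured portions ran from 9.07 to 68.6 RPM and the BDL portions from 0.306 to 10.96 RPM, with a log2 fold change of -3.01 (SE 1.37, adjusted p = 0.763, edgeR). Cholangiocyte markers stood apart in these BDL portions, with a median sum of 588 RPM against 11.9 RPM in the uninjured ones, and the immediate early genes had a median sum of 8809 against 19355 RPM. Their part in the Jag1 and Hey2 values was not tested.

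VSMC-like cells after 6 weeks of CCl4 had more Heyl, Nrarp and Jag1 RNA in the 10X data. Heyl was 188 CPM (176 to 201) in uninjured and 318 CPM (308 to 328) in 6-week cells, a ratio of 1.69 (1.57 to 1.82). Nrarp was 292 CPM (277 to 308) and 483 CPM (471 to 496), a ratio of 1.65. Jag1 was 143 CPM (133 to 154) and 229 CPM (221 to 238), a ratio of 1.60 (1.47 to 1.74). These 3 of 9 genes were at least 1.5-fold higher, against 8.09% of 5784 genes, and none was lower, against 2.42%.

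Ratios of the other genes were 1.28 for Notch1, 1.37 for Notch2, 1.29 for Hey1, 0.968 for Hey2 and 0.880 for Hes1, and Notch3 went from 255 to 365 CPM (ratio interval 1.35 to 1.53). Cluster 4 made up more of the VSMC-like cells at 6 weeks, 1918 of 2785 against 555 of 1511. Within cluster 4 alone, 1 gene was past 1.5-fold, Heyl at 2.06, and Nrarp went from 562 to 647 CPM. Within cluster 7 alone no gene was, and Nrarp went from 147 to 125 CPM, so that its direction turned. The higher Nrarp level over all VSMC-like cells went with a larger share of cluster 4.

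In the SS2 portions of VSMC-like cells 0 of 10 members were called after BDL, after CCl4 or between the injuries (edgeR). Of 13081 genes, 0.00764% were called after BDL and 0.0% in the other comparisons, and 982, 456 and 528 had an unadjusted p under 0.05. Nrarp was 84.2 to 487 RPM in the 6 uninjured, 141 to 393 RPM in the 5 BDL and 175 to 505 RPM in the 4 CCl4 portions, and the 3 groups overlapped. Its log2 fold change was -0.20 (95% interval -1.06 to 0.67) after BDL and -0.13 (-1.10 to 0.83) after CCl4. Portions also differed in their mix of the VSMC-like clusters, which had unlike Nrarp levels. For example, CCl4 replicate 1 had 7 wells in cluster 1 and 12 in cluster 10, and CCl4 replicate 2 had 58 and 0. The part of this mix in the portion values was not tested.

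Notch3 in VSMC-like portions was 736 ± 131 RPM in uninjured (SD, n = 6), 799 ± 152 after BDL (n = 5) and 670 ± 311 after CCl4 (n = 4), with log2 fold changes of 0.13 (-0.49 to 0.76) and -0.12 (-0.84 to 0.60). Jag1 was 388 ± 119, 489 ± 95.05 and 392 ± 163 RPM (SD), with log2 fold changes of 0.36 (-0.38 to 1.09) and 0.01 (-0.80 to 0.83). For Heyl they were -0.08 (-0.61 to 0.45) and 0.28 (-0.33 to 0.90).

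Hes1 and Hey1 had the lowest unadjusted p of the VSMC-like comparisons after CCl4. Hes1 was 243 to 543 RPM in the uninjured and 243, 304, 476 and 395 RPM in the CCl4 portions, with a log2 fold change of -0.57 (-1.19 to 0.06, unadjusted p = 0.0711, edgeR). Hey1 was 30.9 to 73.8 RPM in the uninjured and 31.7, 86.5, 16.5 and 23.3 RPM in the CCl4 portions, with a log2 fold change of -1.10 (-2.32 to 0.12). Neither group of values separated from the uninjured ones. Between the injuries Hes1 was higher after BDL than after CCl4 in the fit, by 0.90 (0.07 to 1.73) on the log2 scale, at an unadjusted p of 0.036 and an adjusted p of 1 (edgeR). Immediate early genes had median sums of 23017 RPM in uninjured, 12987 after BDL and 17762 after CCl4 in these portions.

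**Figure D5:**
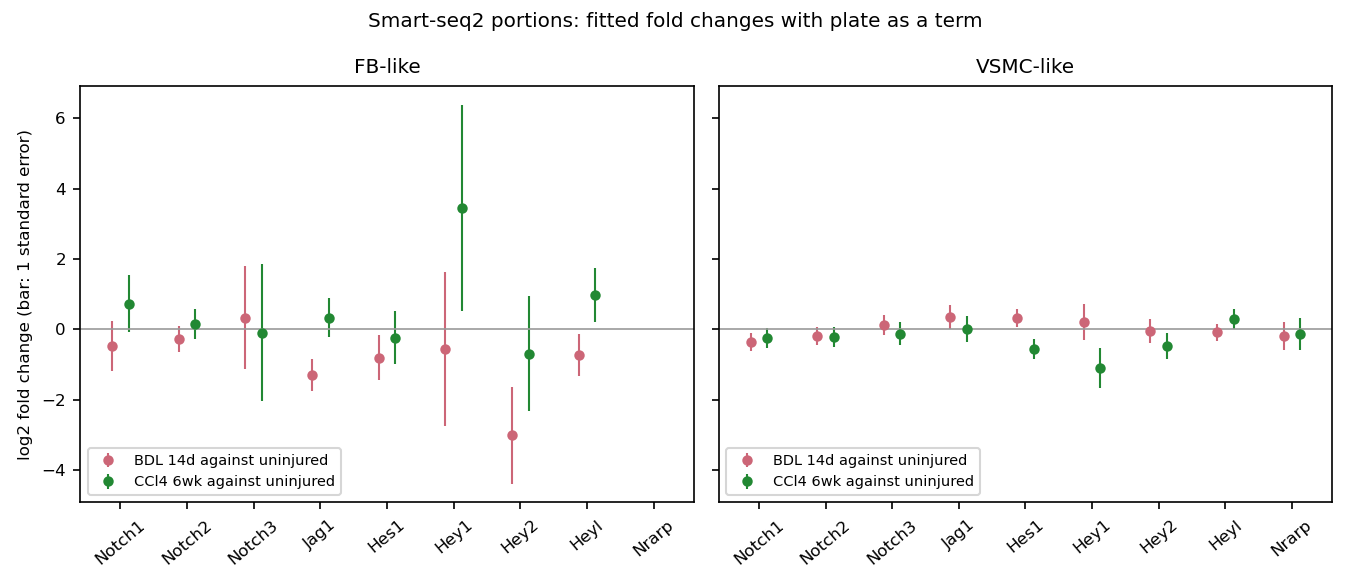
Fitted log2 fold changes of BDL and CCl4 against uninjured in FB-like and VSMC-like SS2 portions (edgeR with plate as a term), with bars of 1 standard error. Notch4 is not drawn and Nrarp was not tested in FB-like portions. Most points lie near 0 with wide bars in FB-like portions. The lowest is Hey2 after BDL at -3.01 and the highest Hey1 after CCl4 at 3.45 (SE 2.92).

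Whether an injury moved a Notch gene differently in VSMC-like and FB-like cells was tested as the difference of the log2 fold changes, with portion as a term. None of the 10 genes was called for BDL or for CCl4, where 0.0485% and 0.0% of 14443 genes were, and 754 and 487 genes had an unadjusted p under 0.05. Jag1 had the lowest unadjusted p for BDL, with a difference of 1.24 (SE 0.54, 95% interval 0.11 to 2.38, unadjusted p = 0.034, adjusted p = 0.932, edgeR). It was lower after BDL in FB-like portions and 0.36 higher in VSMC-like portions, and this difference did not pass the adjusted threshold.

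Of the 52 other genes of the Notch pathway, chosen by function, the same measures gave these counts. In 10X HSC-like cells at 72 h 10 were at least 1.5-fold lower and 3 higher of 32 compared, a share near that of all genes (26.4% lower). Those past 2-fold were Spen at 0.373 and Kat2b at 0.500, a corepressor and a coactivator of RBPJ complexes, Ncstn at 0.496, a subunit of gamma-secretase, and the cell cycle gene Ccnd1 at 0.489. At 6 weeks 3 were lower and 2 higher of 31, against 11.3% and 6.19% of all genes. In FB-like cells 2 of 28 were higher (4.66% of all genes), Ccnd1 at 2.03 and Myc at 2.24, and in VSMC-like cells 3 of 25 (8.09%), with Ccnd1 at 4.67 and the ubiquitin ligase gene Neurl1b at 3.34 past 2-fold. In the SS2 fits 0 of 42 were called in FB-like and 0 of 41 in VSMC-like portions by edgeR, and DESeq2 called Dtx1 in FB-like portions after CCl4 (1.04% of all genes), and between the injuries Neurl1b in FB-like (1.18%) and Dll1 in VSMC-like portions (1.23%).

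The other ligands differed by type. Dll4, a Delta ligand of sprouting vessels, was 6.6 CPM in uninjured HSC-like cells and 2.3 and 1.8 CPM at 72 h and 6 weeks, and 15.6 and 39.9 RPM in the HSC-like SS2 portions, with means of 0.0119 RPM in FB-like and 0.203 RPM in VSMC-like portions. Jag2 was below 0.1 CPM in every type and library. Dlk1, a noncanonical ligand, was 39.6 CPM in uninjured and 33.3 CPM in 6-week FB-like cells. In the FB-like SS2 portions it was low, with a mean of 1.71 RPM (0 to 13.3). Rbpj, the DNA-binding partner of the activated receptors, was 52.8 CPM in FB-like, 36.3 in VSMC-like and 34.4 in HSC-like cells of the uninjured libraries.

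The genes most like 7 of the members over 30 groups of 10X cells, each a cluster of at least 50 cells in 1 library, were ranked by Pearson r of log2(CPM + 1) among 5243 genes. For Notch3 they were Cox4i2 (0.920), Atp1b2 (0.912) and Myh11 (0.908), and for Nrarp Olfr558 (0.990), Gpr20 (0.988) and Nrip2 (0.984). Notch2 went with Marf1 (0.925), Rpgrip1 (0.889) and Ncoa3 (0.857). For Jag1 they were Nbeal1 (0.907), 4930523C07Rik (0.857) and Atp2a2 (0.851), and for Hes1 Bcl2l1 (0.892), Nek7 (0.870) and Pim3 (0.837). Hey2 went with Zak (0.945), Mef2c (0.940) and C2cd2 (0.922), and Heyl with Cald1 (0.895), Syne2 (0.888) and Eml2 (0.887). Among the members themselves r was highest between Hey2 and Notch3 (0.867) and lowest between Notch1 and Notch2 (-0.441). Groups share libraries and types, so these are descriptions.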

How the data were processed

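The deposited 10X files hold UMI counts per gene and cell, which the authors made with Cell Ranger 2.1.0 on mm10 (Ensembl 84), and the deposited plate tables hold read counts per gene and well, which the authors made with STAR and rpkmforgenes. Neither was normalized. Cells with at least 300 genes and at most 30% mitochondrial UMIs were kept, and wells within 3 median absolute deviations. Cells were clustered (2000 variable genes, 10 components, Leiden resolution 0.8, leidenalg 0.10.2) without the members and the pathway list. Doublets were called by simulation, at 0.8% per 1000 cells, and kept, and leaving them out was an alternative. CPM are UMIs and RPM are reads per 1000000, and RPKM divides RPM by the summed exon length in kilobases (GENCODE, GRCm38). Intervals cover counting error only.

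SS2 portions with at least 5 wells of a type were tested with edgeR 4.0.16 (R 4.3.3, TMM, filterByExpr, quasi-likelihood, plate as a term, threshold 0.05 on Benjamini-Hochberg adjusted p). DESeq2 1.42.0 was an alternative. On data simulated for the BDL comparison, edgeR missed most genes changed 3-fold in both types. So a gene that was not called cannot be taken as unchanged. Each of 5 plates held uninjured and injured wells by its layout, so the pairing of portions comes from the plate. In 10X comparisons genes of at least 20 CPM in the higher group were read against 1.5-fold. All 10 members were named, with pathway genes past 2-fold in 10X or called in an SS2 fit, and the 3 genes most alike for each member of at least 50 CPM in a 10X group, of which those for Notch1 are not reported here. Jag2, Dll4, Dlk1 and Rbpj were named after their values were seen. The members and lists were chosen with earlier results of these data known.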

Additional observations from a re-analysis of the deposited data

Results flagged for a closer look

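Chance gives a portion far from the others in about 1 in 20 independent groups. Among 60 groups of 4 to 6 SS2 portions, 8 had such a portion. In FB-like portions these were Notch4 in uninjured replicate 4 at 2.91 RPM (others 0 to 0.376), Notch3 in CCl4 replicate 3 at 67.4 RPM (others 2.72 to 7.60, from 11 wells), and in CCl4 replicate 2, of 15 wells, Notch1 at 62.3 RPM (15.9 to 23.6), Notch4 at 19.3 RPM (0 to 1.99) and Nrarp at 0.716 RPM (0.179 to 0.221). In VSMC-like portions they were Notch4 in uninjured replicate 1 at 10.3 RPM (0 to 1.41), Notch4 in CCl4 replicate 2 at 8.61 RPM (0 to 1.32), and Hey2 in CCl4 replicate 1, which was low at 96.0 RPM (209 to 214). Groups of different genes share portions, and several of the genes were near 0, so the number flagged cannot be read against the chance rate.

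Jag1 and Heyl went in opposite directions between types after 6 weeks of CCl4 in the 10X libraries. The Jag1 ratio to uninjured cells was 0.534 among HSC-like, 1.76 among FB-like and 1.60 among VSMC-like cells. The Heyl ratio was 0.482 for HSC-like cells, while for VSMC-like cells it was 1.69. With 1 library per condition this difference was not tested.

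Cells outside the named types also carried these genes. In unnamed 10X cluster 17, of 157 uninjured and 218 6-week cells, of which 91 and 113 were called doublets, 8 of the 10 genes had a 95% interval wholly above that of FB-like cells in both libraries, all but Notch2 and Notch4. In uninjured and 6-week cells Notch3 was at 166 and 224 CPM, Nrarp at 88.4 and 144 CPM and Jag1 at 106 and 125 CPM. VSMC-like cells of the same libraries had more of each, with Notch3 at 255 and 365 CPM, Nrarp at 292 and 483 CPM and Jag1 at 143 and 229 CPM. In cluster 17 Heyl was at 88.4 and 161 CPM, Hes1 at 286 and 287 CPM and Hey2 at 53.6 and 46.5 CPM. Hey1 was at 32.8 and 16.7 CPM, beside 23.4 and 30.2 CPM in VSMC-like cells, and Notch1 at 13.9 and 22.4 CPM. In the plates, unnamed cluster 11, of 27 wells led by Msln and Upk3b, had Notch2 at 169 RPM, beside a mean of 164 RPM in VSMC-like portions.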

How the results depend on the processing

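Of the counts that answer a comparison, 143 stayed within 1.5 times the reported count under alternatives that left out no portion, and 29 moved further. In VSMC-like 10X cells the count of genes at least 1.5-fold higher was 1 in cluster 4 alone and 0 in cluster 7 alone, where Nrarp was 0.854. Dividing at the median left 2 portal genes at 72 h, where Jag1 was 2.11 but below 20 CPM and Notch1 was 1.29. For collagen-high cells at 72 h the count was 0 with a stricter collagen limit (Notch3 1.39, and Jag1 0.610 but below 20 CPM). It was 2 in portal cells (Notch3 1.49) and 0 in central cells (Notch3 2.56, Heyl 1.13). At 6 weeks it was 0 in portal cells (Notch3 1.09, Jag1 1.03) and 1 in central cells (Notch3 1.13, Heyl 1.40). The cluster and zone divisions were chosen after seeing the data.

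In the SS2 fits DESeq2 called 1 member, Notch4, in FB-like portions after BDL, and edgeR called none. Over all genes, calls in FB-like portions after BDL were 0, and 52 with no replicate block (plate left out), 447 with DESeq2, 249 with no low count filter and 1 with portions summed by plate. After CCl4 they were 0, and 134 with DESeq2, 31 with no filter, 1 with summed portions and 1 with unnamed clusters given a type. Between the injuries they were 0, and 3 with no block, 152 with DESeq2 and 59 with no filter. In VSMC-like portions after BDL there was 1 call, and 50 with no block, 373 with DESeq2, 58 with no filter and 0 with summed portions. After CCl4 DESeq2 called 185, and between the injuries no block gave 1, DESeq2 161 and no filter 6. The interaction for BDL had 7 calls and 16 without the portion block. With no replicate block the log2 fold changes of Hey1 after BDL (-0.226) and Nrarp after CCl4 (0.28, and 0.0701 with summed portions) in VSMC-like portions and of Jag1 after CCl4 in FB-like portions (-0.61) turned sign. None of these was called either way, and the cause was not tested.

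Leaving out 1 portion at a time gave 0 to 1 calls over all genes in FB-like portions after BDL, 0 to 10 in VSMC-like portions after BDL (10 without uninjured replicate 4 and 9 without BDL replicate 5), 0 to 1 between the injuries in VSMC-like portions, and 3 to 9 for the BDL interaction. Log2 fold changes that changed sign ranged, in VSMC-like portions after BDL, from -0.31 to 0.0094 for Notch2, -0.0244 to 0.37 for Notch3, -0.13 to 0.59 for Hey1, -0.55 to 0.25 for Hey2, -0.33 to 0.0737 for Heyl and -0.53 to 0.19 for Nrarp. After CCl4 they ranged from -0.51 to 0.0056 for Notch2, -0.58 to 0.40 for Notch3, -0.39 to 0.46 for Jag1 and -0.51 to 0.25 for Nrarp. In FB-like portions after CCl4 they ranged from -0.27 to 0.70 for Jag1 and -3.84 to 0.31 for Hey2, and for the CCl4 interaction from -0.0739 to 1.06 for Jag1.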
